A study of Arabidopsis thaliana with 6 samples.

Results

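Splice sites that lie 3 bases apart were examined in light-grown seedlings of Arabidopsis thaliana, ecotype Col-0. A pair was taken where the junction tables listed 2 junctions of the same gene between the same 2 exons that shared one end and differed by exactly 3 bases at the other. The junction with fewer reads over the 6 libraries, called the lesser junction here, had at least 10 reads, and the other junction at least 30. Of 3415 pairs at any distance that met these read minimums, 503 in 472 genes were 3 bases apart, and 582 were 4 to 5 bases apart. Wild-type seedlings gave 3 libraries (WT, replicates 2, 4 and 5), and 3 came from acinus-2 pnn seedlings (replicates 6, 7 and 12), all grown for 12 days in continuous light according to the labels. The acinus-2 pnn plants carry T-DNA insertions in both AtACINUS and AtPININ, in the same ecotype as WT. The lines with a single insertion and insertion-free segregants were not analysed here, and whole seedlings were used, so all organs are mixed in a library. The comparison asks whether disruption of both genes moves the choice between splice sites a single codon apart. By mass spectrometry, the study still found N-terminal peptides of AtACINUS in the double mutant, at a reduced level. It also found the partner proteins SR45 and AtSAP18 strongly reduced there.

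In splicing, the spliceosome cuts an intron at a donor site, nearly always GT, and at an acceptor site, nearly always AG. Where a second AG follows the first directly after a single base, the 6 bases read NAGNAG, and either AG can serve as the acceptor. The upstream acceptor leaves 3 more bases in the mRNA than the downstream acceptor, so in a coding region the reading frame is kept and 1 amino acid is gained or lost, or a stop codon is read. Tandem donors that differ by 3 bases work in the same way at the other end of the intron. Acinus and Pinin are RNA-binding partners of the exon junction complex in animals, where they form the ASAP and PSAP complexes together with SAP18 and RNPS1. AtACINUS and AtPININ are their Arabidopsis relatives, and SR45 is the plant relative of RNPS1.

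The sequences below show tandem acceptors, because they hold most of the reads of the set and the bases that the 2 sites differ by. Each window has 30 bases of the transcribed strand, 5′ to 3′, on the reference TAIR10.1, with both triplets of the tandem site in capitals. The upstream acceptor ends after the first capital triplet and the downstream acceptor after the second. The first 6 windows are the pairs with the most reads of the lesser junction, and the last 3 are the members in the lists of splicing and exon junction complex genes used here.
emb1138 (chr5:9285607-9285636, minus strand): attgatgcctttaaaCAGAAGttttggagg
AT5G04800 (chr5:1389172-1389201, plus strand): tggtttttcccctttCAGCAGgtaagtcac
DRH1 (chr3:213201-213230, minus strand): taaatttttgatgtaAAGTAGaagcagcaa
OASA1 (chr4:8520055-8520084, minus strand): tctttttgtgaatttAAGCAGtgaagcttg
ARF2 (chr5:24914796-24914825, plus strand): ttgttctgttaatgaCAGCAGgatgggggt
AT3G62840 (chr3:23236103-23236132, minus strand): ttgaatgtcattcttTAGCAGggaaagact
AT1G15280 (chr1:5253528-5253557, plus strand): actgcatttgatacaCAGCAGaggatgtct
SCL33 (chr1:20632130-20632159, plus strand): tttggttcgttggagCAGCAGatttcggga
RS41 (chr5:21133267-21133296, plus strand): gtggttttgaaactgAAGCAGcccctctcg

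Acceptors made up most of the set. Of the 503 pairs, 475 differed at the acceptor and 28 at the donor, and 496 joined neighbouring exons. On the reference 473 acceptor pairs could be placed, and 472 of them had GT and AG in both junctions. All 28 donor pairs were placed, and 21 of them had GT and AG in both junctions. The lesser acceptor lay upstream in 207 of the placed pairs and downstream in 266. The annotation held the lesser junction of 312 acceptor pairs and lacked that of 161. Where a tandem site was joined to several exons it could be counted more than once: 3 tandem sites were held by 2 members each, such as the one of ORP2A (AT4G22540). In all, 27 genes had 2 members and 2 genes had 3, so members of 1 gene share its RNA.

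How often a tandem acceptor entered the set went with the base before each AG. The survey covered 84186 GT-AG junctions, each the most used of its exon pair with at least 30 reads. A second AG ended exactly 3 bases upstream of the acceptor in 1355 of them (1.61%) and exactly 3 bases downstream in 3467 (4.12%), with 101 (0.12%) having both. With the second AG upstream, 206 (15.2%) were members: 72.2% of those with CAG there, 50.5% with TAG, 12.9% with AAG and 0.427% with GAG. With the second AG downstream, 257 (7.41%) were members: 75.2% of those with CAG there, 54.3% with TAG, 14.2% with AAG and 0.901% with GAG. On both sides CAG came first, followed by TAG, then AAG and last GAG. Among the members CAGCAG was the most frequent tandem (104 pairs), followed by TAGCAG (100), CAGAAG (65), AAGCAG (41), CAGTAG (39), TAGTAG (38), TAGAAG (30) and AAGAAG (19). The 15 bases before the tandem were 66.7% pyrimidine in the median, and the median distance back to the previous AG was 32 bases.

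The same bases ordered how the reads were divided between the acceptors, in both genotypes. In WT the upstream acceptor took a median of 15.8% of the reads of a pair in AAGCAG, 23.7% in TAGCAG, 45.0% in TAGTAG, 54.1% in CAGCAG, 74.6% in CAGTAG, 92.0% in TAGAAG and 94.9% in CAGAAG. In acinus-2 pnn the medians were 15.6% in AAGCAG, 23.3% in TAGCAG, 45.5% in TAGTAG, 55.7% in CAGCAG, 74.2% in CAGTAG, 91.9% in TAGAAG and 94.4% in CAGAAG. These 7 tandems kept their order, and no median differed by over 2 percentage points between genotypes. In the less frequent AAGTAG tandem (10 pairs) the medians were 29.9% in WT and 22.6% in acinus-2 pnn, which put it above TAGCAG in WT and below it in acinus-2 pnn, and in AAGAAG they were 66.4% and 60.05%. In CAGGAG (11 pairs) the upstream acceptor took a median of 96.7% in WT and 97.9% in acinus-2 pnn. These are medians over pairs and carry no test.

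**Figure D1:**
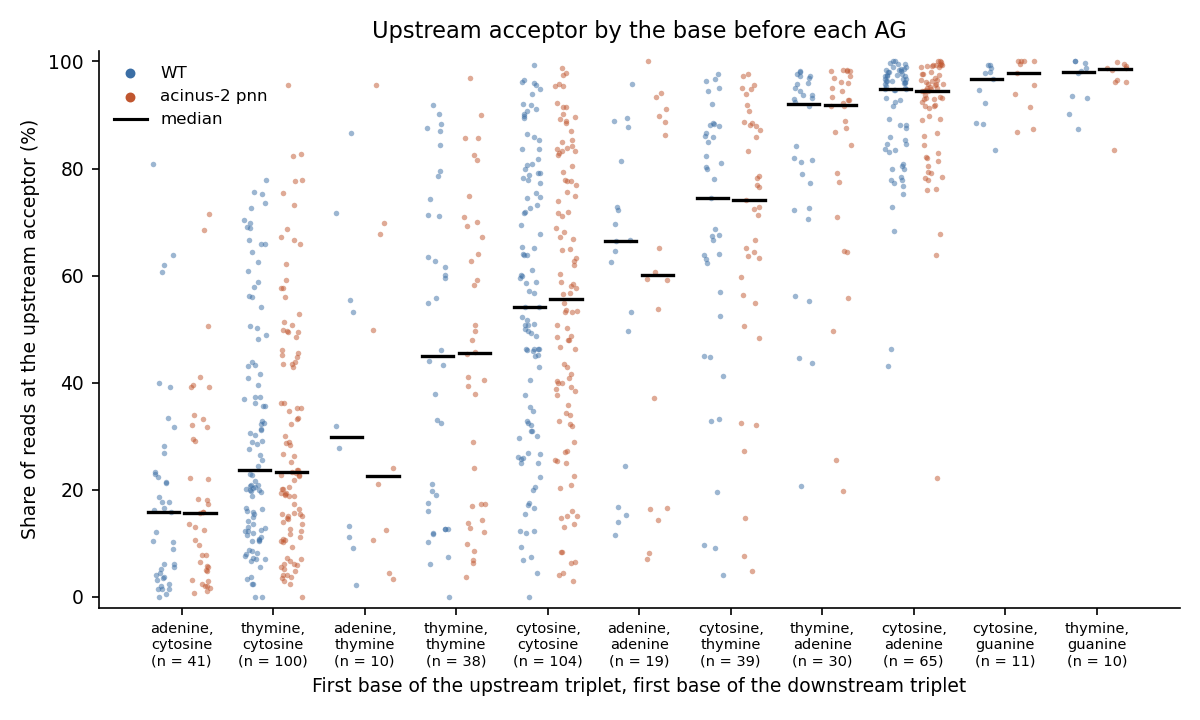
Share of reads at the upstream acceptor (vertical axis, percent) for each tandem acceptor pair, grouped by the first base of the upstream and of the downstream triplet, with WT and acinus-2 pnn side by side; each point is the mean of 3 libraries and each bar the median of the group. In WT the medians climb from 15.8% in the group A, C to 98.05% in the group T, G, and those of acinus-2 pnn follow the same order except that the group A, T (22.6%) lies below T, C (23.3%).

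Over all 472 tandem acceptors, the upstream site took 63.2%, 61.1% and 62.1% of the summed reads in the WT libraries (mean 62.1% ± 1.04, SD, n = 3). In the acinus-2 pnn libraries it took 62.5%, 63.3% and 62.7% (mean 62.8% ± 0.43, SD, n = 3). The values of the genotypes overlapped, and the difference of 0.719 percentage points was below the SD between WT libraries. A sum over pairs also follows the RNA level of each gene. With each pair held at the same weight in every library, the shares were 62.4%, 62.4% and 62.8% in WT (mean 62.5% ± 0.22) and 62.3%, 62.6% and 62.1% in acinus-2 pnn (mean 62.4% ± 0.28). That difference, acinus-2 pnn minus WT, was -0.156 percentage points. The weighting gave another value for tandems with a downstream CAG (247 pairs). There the summed upstream share was 24.4%, 22.9% and 23.8% in WT and 25.1%, 26.8% and 26.1% in acinus-2 pnn, with no overlap, whereas at fixed weights the difference was -0.23 percentage points and the median change over pairs -0.45. The median share over these pairs was 32.0% in WT and 33.9% in acinus-2 pnn. Tandems with an upstream CAG (219 pairs) went the other way in the summed reads. Their upstream share was 86.0%, 85.3% and 85.6% in WT and 84.4%, 84.8% and 83.9% in acinus-2 pnn. At fixed weights the genotypes overlapped there, with a difference of -0.229 percentage points. Of the 11 tandems with at least 10 pairs, 2 were separated under both weightings, each with a higher share in acinus-2 pnn. This count was not tested, and the fixed weights were chosen after the values were seen. Among single pairs at any distance, acinus-2 pnn lay above WT without overlap in 5.94% and below in 5.92%. At fixed weights CAGTAG had 68.9%, 71.1% and 71.7% in WT and 72.8%, 72.1% and 72.3% in acinus-2 pnn, a difference of 1.83 percentage points. AAGCAG had 14.952%, 14.06% and 14.26% in WT and 14.956%, 15.4% and 15.3% in acinus-2 pnn, a difference of 0.793 percentage points. Its highest WT value (14.952%) and lowest acinus-2 pnn value (14.956%) were almost equal. CAGAAG was separated in the summed reads only, with a lower share in acinus-2 pnn.

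Only pairs with at least 10 lesser reads were in the set, so sites with little use were left out. Among these pairs the lesser junction took widely differing shares. Its median share was 18.2% in WT and 16.5% in acinus-2 pnn, with quartiles of 7.04% and 32.0% in WT and of 6.04% and 32.2% in acinus-2 pnn. Over all 3415 pairs the medians were 10.8% and 11.0%, and over the pairs 4 to 5 bases apart 10.04% and 9.83%. Lesser junctions that the annotation holds (325 pairs) had a median share of 23.2% in WT and 23.3% in acinus-2 pnn. Those that it lacks (176 pairs) had 9.16% and 7.32%. Donor pairs had a median lesser share of 14.2% in WT and 10.4% in acinus-2 pnn, and acceptor pairs 18.6% and 16.7%. The lesser junction had a median of 32 reads over the 6 libraries and at most 1038, and the other junction a median of 169.

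**Figure D2:**
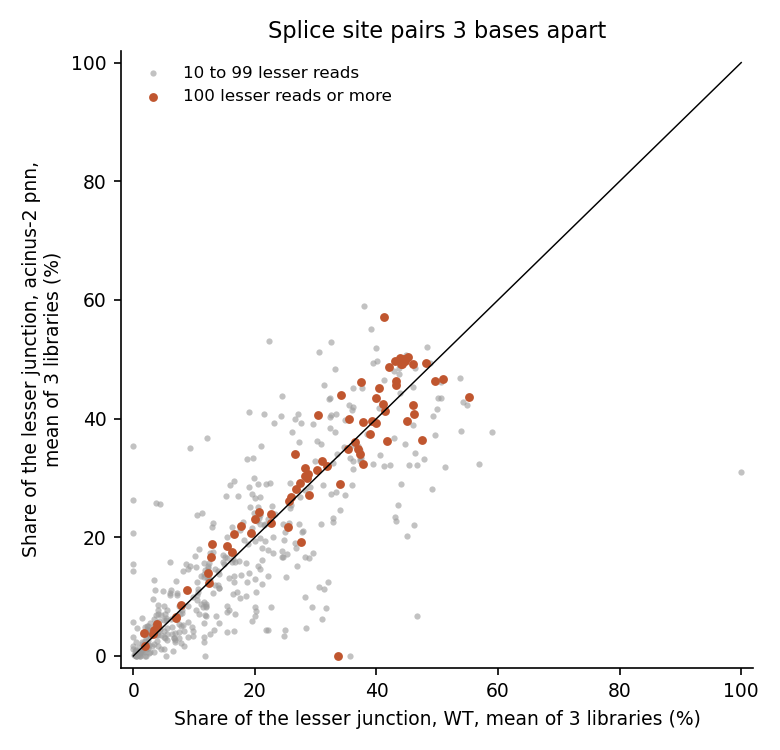
Share of the lesser junction in acinus-2 pnn (vertical axis, percent) against WT (horizontal axis, percent), each the mean of 3 libraries, for the 502 pairs with reads in both genotypes; the line marks equal shares. The points scatter on both sides of the line, 249 above and 253 below, and the point at 100% in WT, of AT1G58602, rests on 2 WT reads.

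No pair 3 bases apart was called as changed. With edgeR's quasi-likelihood test of the ratio of lesser to other reads, adjusted over all pairs at any distance by Benjamini-Hochberg, 0 of 503 members passed an adjusted p of 0.05 (background: 0 of 3415 pairs, 0%). The smallest adjusted p of a member was 0.693 and of any pair 0.377. An unadjusted p under 0.05 was reached by 15 members (2.98%), 8 with a higher and 7 with a lower lesser share in acinus-2 pnn, against 5.24% of all pairs (2.78% higher and 2.46% lower). DESeq2 on the same columns called 1 member (background 0.381%), and a quasi-binomial model also called 1 (background 0.147%). Both calls were the same pair, of AT4G02450, which is described below. By the rule that Fisher's exact test gives p under 0.05 in all 9 comparisons of 1 WT with 1 acinus-2 pnn library, with a fold above 2 and a share above 5%, 0 of 503 members were called (background 0.264%). The lesser share of all 3 acinus-2 pnn libraries lay above all 3 WT libraries in 23 members (4.57%, background 5.94%) and below in 22 (4.37%, background 5.92%). Neither share exceeded its background.

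The changes were small in the median and spread to both sides. The median change of the lesser share, acinus-2 pnn minus WT, was -0.0856 percentage points, with quartiles of -4.37 and 3.32. Its sign was not stable: it ran from -0.216 to 0.169 when 1 library was left out, and was 0.669 over the pairs with at least 30 lesser and 90 other reads. Over all pairs the median change was 0.12 percentage points, with quartiles of -3.35 and 3.75, and over pairs 4 to 5 bases apart it was -0.178. Of the 502 members with reads in both genotypes, 249 had a higher and 253 a lower share in acinus-2 pnn. The median size of a change was 3.85 percentage points over members, 3.55 over all pairs and 3.34 over the pairs 4 to 5 bases apart.

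The deepest pairs bounded a change most closely. In the 234 pairs with 10 to 29 lesser reads, the 95% interval of the change had a median width of 15.3 percentage points to each side. At that width a smaller change could not be told from 0 by its interval, and single pairs had narrower or wider intervals. In the 191 pairs with 30 to 99 lesser reads it was 16.1, and in the 78 pairs with 100 or more 9.12. In those 78 pairs the median SD between libraries was 3.0003 percentage points in WT and 3.30 in acinus-2 pnn, and the median size of the change was 3.11. The interval of the change held 0 in 74 of the 78, and the change was under 5 percentage points in 56. Libraries of 1 genotype differed from each other by a median of 2.99 to 4.38 percentage points over these pairs (6 comparisons), and libraries of different genotypes by 2.95 to 4.59 (9 comparisons). The ranges within and between genotypes overlapped.

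**Figure D3:**
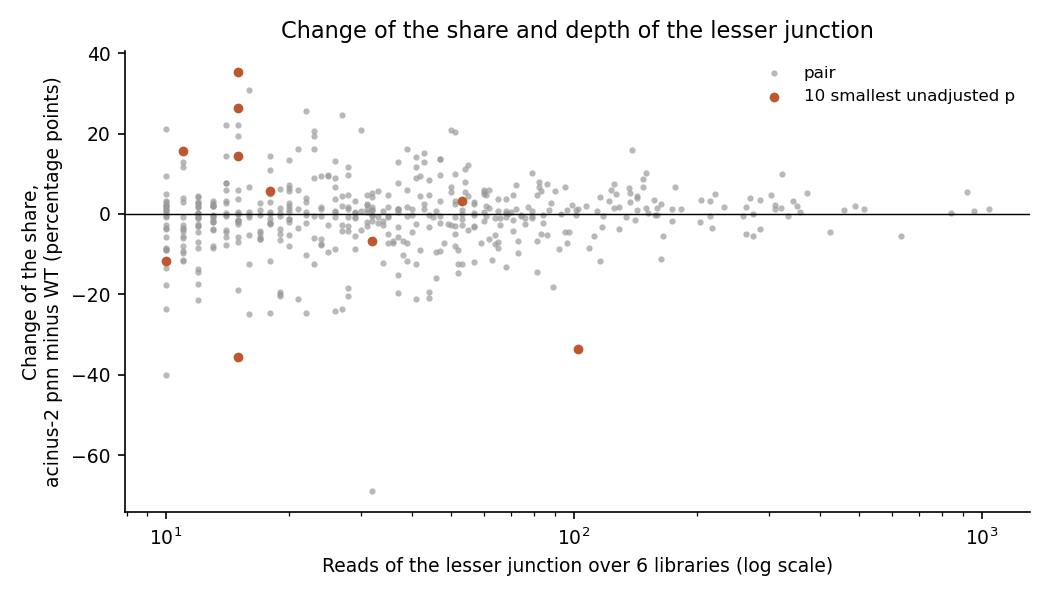
Change of the lesser share, acinus-2 pnn minus WT in percentage points (vertical axis), against the reads of the lesser junction over 6 libraries (horizontal axis, log scale), 1 point per pair, with the 10 pairs of smallest unadjusted p marked. The median size of the change was 4.12 percentage points at 10 to 29 lesser reads, 4.41 at 30 to 99 and 3.11 at 100 or more.

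The 6 pairs with the most lesser reads show this closely. emb1138 (AT5G26742), which encodes a DEAD-box RNA helicase of the chloroplast, used its downstream acceptor in 24.4%, 23.8% and 19.8% of the reads in WT and in 25%, 23.4% and 23.3% in acinus-2 pnn. The genotypes overlapped, and the change was 1.21 percentage points (95% interval -3.08 to 5.50). The ribosomal protein gene AT5G04800, of the S17 family of the small subunit, had lesser shares of 22.3%, 28.5% and 25.8% in WT and 26.6%, 23.9% and 28.0% in acinus-2 pnn. Its values overlapped too, with a change of 0.618 percentage points (interval -5.32 to 6.56). OASA1 (AT4G14880), the cytosolic enzyme that makes cysteine from O-acetylserine, had 31.9%, 29.4% and 34.2% in WT and 32.8%, 32.6% and 30.8% in acinus-2 pnn. Its change of 0.255 percentage points was the smallest of the 6 (interval -3.997 to 4.51).

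The RNA helicase gene DRH1 (AT3G01540) had lesser shares of 47.4%, 41.9% and 44.3% in WT and 59.1%, 41.9% and 49.2% in acinus-2 pnn. One acinus-2 pnn library was high, the other values overlapped, and the interval of the change ran from -8.94 to 20.0 percentage points. ARF2 (AT5G62000), an auxin response factor, had 41.6%, 45.2% and 51.9% in WT and 41.0%, 41.4% and 39.9% in acinus-2 pnn. All acinus-2 pnn values lay below WT, but the change of -5.43 percentage points was about as large as the SD between WT libraries (5.24), and its interval held 0 (-13.9 to 3.06). AT3G62840, a gene of the SmD2 type that encodes a core protein of the spliceosomal snRNPs, had 29.6%, 27.4% and 33.7% in WT and 33.3%, 32.6% and 28.2% in acinus-2 pnn, which overlapped.

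Of 46 genes on the lists of splicing factors used, 3 held a pair, beside 472 of the 20962 genes tested for RNA level: 2 of 19 SR proteins, 0 of 4 genes of ASAP and PSAP, 0 of 5 of acceptor recognition, 1 of 9 of the exon junction complex and decay, and 0 of 9 of the spliceosome and cap. None of the 3 pairs was called. AT1G15280, a relative of the exon junction complex protein CASC3 (Barentsz), had lesser shares of 38.8%, 41.7% and 43.5% in WT and 43.5%, 42.3% and 38.1% in acinus-2 pnn. Both means were 41.3%, with an interval of the change from -6.04 to 5.89 percentage points. SCL33 (AT1G55310), an SR protein of the SC35-like group, had 47.8%, 23.6% and 41.9% in WT and 29.6%, 30.5% and 37.0% in acinus-2 pnn. RS41 (AT5G52040), an SR protein of the plant-specific RS group, had 13.6%, 23.2% and 16.2% in WT and 15.7%, 29.6% and 20.5% in acinus-2 pnn. Both overlapped between genotypes.

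**Figure D4:**
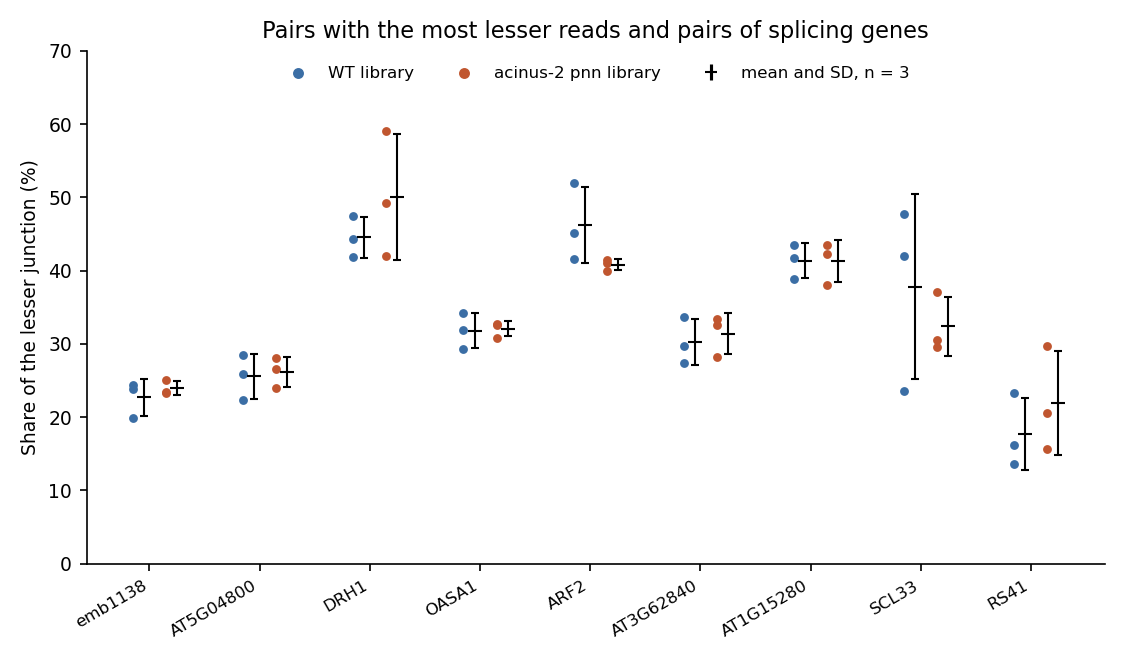
Share of the lesser junction in each library (vertical axis, percent) for the 6 pairs with the most lesser reads and for the pairs of AT1G15280, SCL33 and RS41; points are libraries, and the bar with whiskers is the mean ± SD of 3 libraries. WT and acinus-2 pnn points interleave in every pair but ARF2, where the acinus-2 pnn points lie at 39.9% to 41.4% and the lowest WT point at 41.6%.

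Most pairs changed a protein by a single residue. Of the members, 409 lay in coding sequence, 73 in 5′ UTRs, 14 in 3′ UTRs and 1 in a noncoding transcript. In 4 no annotated transcript held the intron, and 2 could not be placed. In coding sequence, 373 pairs inserted or removed 1 residue, 16 exchanged 1 residue for 2, 16 had a stop codon in the longer form and 4 in the shorter form. The intron fell between codons (phase 0) in 211 of the coding pairs (51.6%), after the first base of a codon in 130 (31.8%) and after the second in 68 (16.6%).

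In phase 0 the downstream triplet is itself the codon that the upstream acceptor adds. Where it was CAG, for glutamine (117 pairs), the upstream acceptor took a median of 35.6% in WT and 39.2% in acinus-2 pnn. Where it was AAG, for lysine (47 pairs), it took 88.9% and 91.7%, and where it was GAG, for glutamate (12 pairs), 98.4% and 99.5%. Where it was TAG, a stop codon (16 pairs), it took 12.3% and 12.5%. A downstream TAG that was not read as a codon, in the other phases (51 pairs), went with a median of 63.5% in WT and 66.7% in acinus-2 pnn. So a TAG in frame went with low use of the site that would include it, in both genotypes.

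With the same base before the first AG, the groups were separated after CAG and overlapped after TAG and AAG. After CAG, the upstream acceptor took 4.02% to 19.6% in WT in the 4 pairs in which TAG was a stop codon, and 32.8% to 97.7% in the 28 pairs in which it was not, with no overlap. After TAG, the ranges were 0% to 88.4% (11 pairs, median 12.6%) and 19.8% to 87.0% (14 pairs, median 60.8%). After AAG, the 1 stop pair had 13.2%, within the range of 2.22% to 86.7% of the 9 other pairs. Summed over the 16 stop pairs, the upstream share was 12.4%, 14.9% and 13.6% in WT (mean 13.6% ± 1.23, SD, n = 3) and 13.9%, 18.6% and 13.6% in acinus-2 pnn (mean 15.4% ± 2.82, SD, n = 3). One acinus-2 pnn library was high and the other values overlapped. Over the 51 pairs with TAG out of frame, the means were 64.4% ± 1.93 and 64.7% ± 1.29. The share of reads counts RNA that is present, so how often a site was cut and how fast the product was lost cannot be told apart.

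The sequences of 3 stop pairs follow, with the stop codon as the second capital triplet.
CRR1 (chr5:21170748-21170777, plus strand): ctaaacgaatgtcttTAGTAGggaaaagaa
OVA5 (chr3:4397937-4397966, minus strand): tcttctgttttgttgTAGTAGatcgtttca
AT1G61300 (chr1:22607705-22607734, minus strand): cattttcttcttcttTAGTAGtactagtac
In 15 of the 16 stop pairs the upstream acceptor was the lesser one, and 14 of the lesser junctions were absent from the annotation. CRR1 (AT5G52100) is needed for the chloroplast NDH complex, and its upstream junction would end the protein after 101 in place of 298 residues. It had 9, 14 and 9 reads in WT and 9, 13 and 7 in acinus-2 pnn, beside 70, 83 and 65 and 54, 33 and 68 reads of the downstream junction. The exception was AT1G61300, in which 88.4% of the WT reads used the upstream acceptor. There the stop lay at the end of the protein, with 737 against 738 residues.

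Tandem donors were rarer, and several were shared between related genes. Of the 28 donor pairs, the lesser site lay upstream in 19 and downstream in 9, and 13 of the lesser junctions were annotated. The most frequent tandem was GTGGTA (8 pairs), then GTAGTT (4 pairs), and 6 pairs had GC in place of GT at 1 donor. The upstream donor begins with the first capital triplet and the downstream donor with the second. The windows show 3 couples of related genes, picked after their values were seen.
UEV1D-4 (chr3:19495251-19495280, minus strand): ggtcctcacaacGTAGTTatatctttttct
MMZ3 (chr2:15143460-15143489, minus strand): ggtcctcacaacGTAGTTatatctctgttt
CKB3 (chr3:22270978-22271007, minus strand): ctaaattccaagGCAGTAtcctttttctct
CKB4 (chr2:18427185-18427214, minus strand): ctaaataccaagGCAGTAtcctttgctcct
ATB BETA (chr1:6096198-6096227, minus strand): cgtttgcctgtgGTAGTTgtactcgacgca
B ALPHA (chr1:19167554-19167583, plus strand): cgattaccagtgGTAGTTgtaccctgaaca

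UEV1D-4 (AT3G52560) and MMZ3 (AT2G36060) encode ubiquitin-conjugating enzyme variants, and in both the tandem lay in intron 2 of 3. The upstream donor took 74.0% ± 2.86 in WT and 73.1% ± 1.17 in acinus-2 pnn for UEV1D-4, and 65.9% ± 0.90 and 71.0% ± 9.20 for MMZ3 (SD, n = 3). CKB3 (AT3G60250) and CKB4 (AT2G44680) encode regulatory subunits of casein kinase II, and in both the tandem lay in the last intron. The upstream donor took 58.9% ± 7.61 in WT and 57.5% ± 10.0003 in acinus-2 pnn for CKB3, and 44.9% ± 2.36 and 39.6% ± 7.36 for CKB4, so the site used more often was the upstream one in CKB3 and the downstream one in CKB4. ATB BETA (AT1G17720) and B ALPHA (AT1G51690) encode B subunits of protein phosphatase 2A. The upstream donor took 62.8% ± 11.1 in WT and 65.9% ± 12.1 in acinus-2 pnn for ATB BETA, and 28.3% ± 4.44 and 28.0% ± 6.86 for B ALPHA, so these also differed in the site used more often. Each change between genotypes was smaller than the larger SD of its pair. The acceptor pair of AT3G62840 had a counterpart as well, in its relative AT2G47640.
AT2G47640 (chr2:19537842-19537871, plus strand): gcttgatactgtcctTAGCAGggcaagact
Here the upstream acceptor was the lesser one and took 39.0%, 40.2% and 45.9% in WT and 38.2%, 33.6% and 36.9% in acinus-2 pnn. All acinus-2 pnn values lay below WT by this count, and the interval of the change held 0 (-12.5 to 1.59 percentage points). In AT3G62840 the upstream acceptor was used more often, at 69.8% in WT and 68.6% in acinus-2 pnn.

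The pair with the smallest p among the members was that of AT4G02450, whose product resembles the p23 co-chaperone of HSP90. Its window shows a CAGAAG tandem.
AT4G02450 (chr4:1074088-1074117, minus strand): attttctgtaaattgCAGAAGagacagcaa
The downstream junction had 0, 0 and 0 reads in WT and 18, 16 and 19 in acinus-2 pnn, beside 591, 508 and 508 and 543, 480 and 610 reads of the upstream junction. The share was thus 0% in every WT library and 3.21%, 3.23% and 3.02% in acinus-2 pnn, with no overlap. The pair met the minimum of lesser reads through acinus-2 pnn alone. edgeR gave an unadjusted p of 0.00175 and an adjusted p of 0.693, DESeq2 an adjusted p of 0.00116 and the quasi-binomial model 0.0208. The reads of the lesser junction crossed it near the end of the read: 51 of 53 had at most 5 bases on the far side of the junction. With only reads that had at least 10 bases on each side, the lesser junction had 0, 0 and 0 reads in WT and 1, 0 and 1 in acinus-2 pnn, beside 553, 478 and 464 and 515, 450 and 564. Whether the reads came from the downstream acceptor was not tested.

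**Figure D5:**
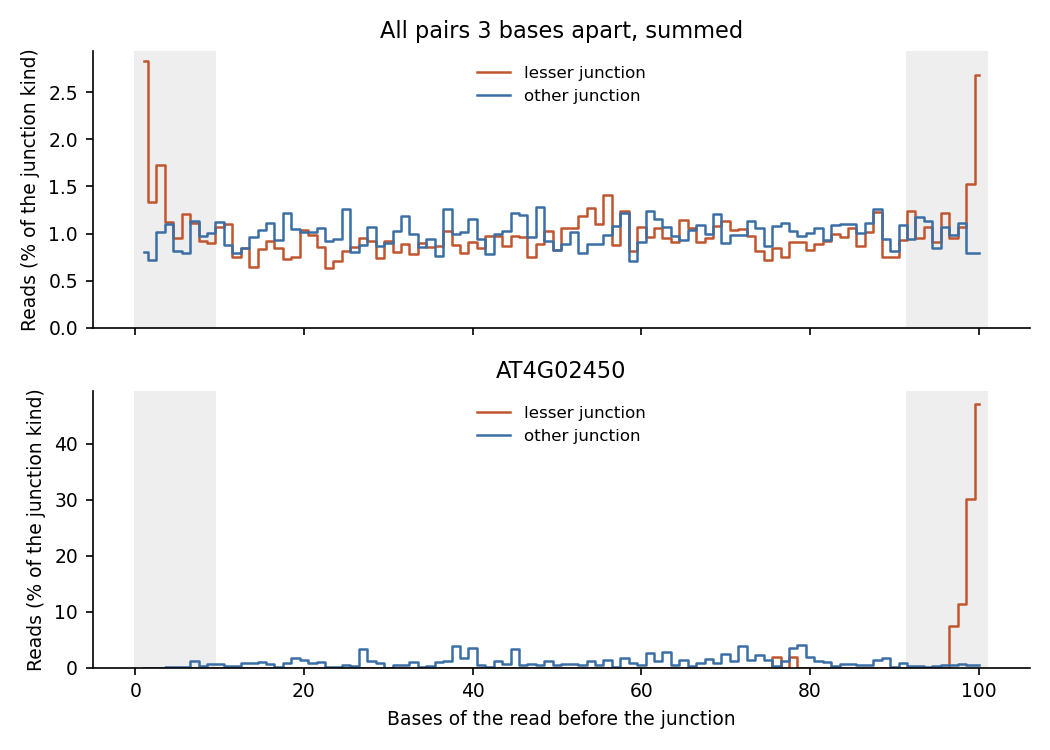
Reads (vertical axis, percent of each junction kind) by the number of bases of the read before the junction (horizontal axis), for the lesser and other junctions of all pairs summed (upper panel) and of AT4G02450 (lower panel); the shaded bands hold reads with under 10 bases on a side. Reads of the other junctions are spread over the read, whereas 51 of 53 reads of the lesser junction of AT4G02450 lie at the right end.

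Short overhangs were also more frequent over the whole set in lesser junctions. Of all lesser reads 23.7% had under 10 bases on a side, against 17.2% of the other reads. The lesser junction had over 50% such reads in 49 members, 14 annotated and 35 not, and over 90% in 22. With reads of at least 10 bases on each side, 413 members of 2642 pairs met the read minimums. edgeR then called 0 of 413 (background 0.151%), with 11 at an unadjusted p under 0.05 (2.66%, background 6.32%) and a smallest adjusted p of 0.228. DESeq2 called 0 of the 413 (background 4 of 2642 pairs) and the quasi-binomial model 0 (background 11 of 2642 pairs). With so few calls among all pairs, these counts of 0 do not set the members apart.

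The other 9 pairs with the smallest unadjusted p had few lesser reads or none in several libraries, and none passed the adjustment. The lesser junction of OVA5 (AT3G13490), the lysyl-tRNA synthetase of the organelles, had 0, 0 and 0 reads in WT and 4, 8 and 3 in acinus-2 pnn, beside 36, 31 and 35 and 28, 24 and 51 (unadjusted p 0.0126 from edgeR). This is a stop pair, with 257 in place of 602 residues. XRI1 (AT5G48720), a gene of DNA repair and meiosis, had 0, 0 and 0 lesser reads in WT and 2, 4 and 9 in acinus-2 pnn. AT1G21610 had 0, 0 and 0 in WT and 5, 1 and 5 in acinus-2 pnn. AT2G45460 had 0, 0 and 0 in WT and 6, 3 and 6 in acinus-2 pnn. In these 4 pairs the lesser junction was absent in WT at the depth reached and present in every acinus-2 pnn library. All 4 met the minimum of lesser reads through acinus-2 pnn alone and were picked by their small p. Their absence in WT is thus partly set by how the pairs were chosen. Reads of the other junction are given here for OVA5 only, so the WT depth of the rest cannot be judged from these counts.

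In 2 further pairs every WT library had lesser reads and no acinus-2 pnn library had any. These 2 pairs met the minimum of 10 lesser reads through WT alone. NEDD1 (AT5G05970), which recruits the gamma-tubulin complex to microtubules, had 6, 6 and 3 lesser reads in WT and 0, 0 and 0 in acinus-2 pnn, beside 10, 5 and 17 and 5, 9 and 6. AT4G16060 had 1, 4 and 5 in WT and 0, 0 and 0 in acinus-2 pnn. AT2G22425 had lesser shares of 1.59%, 12.7% and 10.7% in WT and 3.26%, 1.59% and 0% in acinus-2 pnn, which overlapped. The lesser donor of CIPK23 (AT1G30270), a kinase in the control of potassium and nitrate uptake, had 0, 0 and 0 reads in WT and 8, 0 and 10 in acinus-2 pnn. All 18 had under 10 bases on a side. RP1 (AT1G43170), which encodes ribosomal protein L3, had 0, 57 and 45 lesser reads in WT and 0, 0 and 0 in acinus-2 pnn, beside 33, 59 and 42 and 44, 30 and 52. There 96.1% of the lesser reads had under 10 bases on a side, and 1 WT library was also at 0. The pairs of CIPK23 and RP1 also met the minimum of lesser reads through 1 genotype alone.

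In the 78 pairs with 100 or more lesser reads, acinus-2 pnn lay above WT without overlap in 5 and below in 3 (background 5.94% and 5.92% of all pairs). An unadjusted p under 0.05 from edgeR was reached by 2 of the 78 (background 5.24% of all pairs), a share not above the background. These were the pairs of RP1 and of MAP3KA (AT1G53570), a MAP kinase kinase kinase.
MAP3KA (chr1:19990297-19990326, plus strand): cttgactttcttcttTAGCAGcctacaagg
The downstream acceptor of MAP3KA had 18, 18 and 21 reads in WT and 23, 26 and 33 in acinus-2 pnn, beside 22, 32 and 28 and 15, 23 and 24 of the upstream one. Its share was 41.3% ± 4.70 in WT and 57.2% ± 3.79 in acinus-2 pnn (SD, n = 3), with no overlap and an unadjusted p of 0.0473 from edgeR. The next pair in the gene, at the intron that follows, had a lesser share of 13.5% ± 1.47 in WT and 14.7% ± 8.38 in acinus-2 pnn. LHY (AT1G01060), a transcription factor of the circadian clock, had 33.6%, 40.1% and 28.6% in WT and 47.5%, 36.9% and 47.7% in acinus-2 pnn. Here 1 acinus-2 pnn library fell within the WT range, and the interval of the change held 0 (-3.60 to 23.5 percentage points). Both genes were picked after their values were seen.

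Few of the genes that hold a tandem pair were called as changed in RNA level. Of the 472 genes, 4 were higher in acinus-2 pnn at an adjusted p under 0.02 and a fold above 2 (0.847%, background 4.29%) and 2 were lower (0.424%, background 4.88%), by edgeR. Genes with a pair had to reach the read minimums at their junctions, whereas the background holds all genes tested, also those with few junction reads. The shares thus come from unlike sets of genes and do not set tandem genes apart. The higher ones were FRO3, an iron reductase of mitochondria (log2 fold change 1.27), COR27, a cold-regulated gene tied to the clock (1.24), AT1G24147 (1.35) and AT1G65484 (1.71). The lower ones were CA1, a carbonic anhydrase of the chloroplast (-1.01), and AGL24, a flowering-time MADS-box factor (-1.50). The median log2 fold change was 0.01 over these genes and 0.00 over all genes. In whole seedlings fewer cells of a type and less RNA per cell cannot be told apart.

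Retention of the intron between the 2 exons of a pair could be tested for 235 introns. By edgeR, at an adjusted p under 0.05 and a fold above 2, 4 were more retained in acinus-2 pnn (1.70%, background 1.08%) and 2 less (0.851%, background 0.172%). The more retained ones lay in CA1 (log2 change of the intron to exon ratio 2.09, adjusted p 2.07e-12), AT1G58602, AT2G47410 and AT5G18630. In AT1G58602 both junctions of the pair begin and end far inside the intron tested. Its value is thus that of a longer region, not of the intron that the tandem ends. The less retained ones lay in AT3G62840 (-2.64, adjusted p 0.0357) and PSBQ-2 (-1.38). Leaving out any 1 library lowered these counts to 2 or 3 more retained and 0 or 1 less retained, and DESeq2 called 1 and 0. The median over introns with a pair was 0.07 and over all introns -0.03. In AT3G62840 the choice between the acceptors of the same intron was 30.2% ± 3.18 in WT and 31.4% ± 2.78 in acinus-2 pnn, as given above. In CA1 the lesser junction had 57, 0 and 1 reads in WT and 0, 0 and 26 in acinus-2 pnn, of which 96.4% had under 10 bases on a side.

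The targeted genes matched the labels at the junction given for each. Exons are numbered here along the chromosome. The junction of exons 3 and 4 of AtACINUS had 88, 149 and 143 reads in WT and 0, 1 and 0 in acinus-2 pnn. The junction of exons 2 and 4 of AtPININ, which skips exon 3, had 21, 36 and 45 reads in WT and 0, 0 and 0 in acinus-2 pnn. Junctions of AtPININ that include exon 3 are not given here. The libraries held 4419356 to 6391083 spliced reads and 18890171 to 27622688 reads on genes. The 3 shoot markers lay lower in every acinus-2 pnn library than in any WT library. In CPM (counts scaled to the reads on genes), RBCS1A stood at 6212 to 6388 in WT and 5239 to 5440 in acinus-2 pnn, LHCB6 at 1571 to 1836 and 1216 to 1258, and FBA2 at 1573 to 1740 and 1224 to 1301. The root hair marker RHD6 stood at 2.93 to 3.23 CPM in WT and 0.98 to 1.01 in acinus-2 pnn, EXP7 at 5.32 to 7.13 and 2.21 to 3.80, and the root marker SHR at 15.1 to 17.1 in all libraries. The flower markers AP3 and PI and the seed marker SESA3 were at most 0.529, and the seed marker CRU3 reached 8.23 in acinus-2 pnn replicate 12 only. The part of these differences in the values above was not tested.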

How the data were processed

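RNA of WT and acinus-2 pnn seedlings was sequenced in 3 biological replicates each (the labels give 12 days of growth, the study's methods a greater age). Junction tables deposited by the authors were made with RACKJ and hold whole-number read counts per junction, with no normalization. Gene, exon and intron tables deposited by the authors hold expected counts, which were rounded. The RACKJ version and the mapping behind its tables are not given in the sources used here. TAIR10 is the stated build. Introns of the tables were placed on TAIR10.1 (RefSeq) through neighbouring exons, and 117651 of 120217 placed introns equalled annotated ones (97.9%).

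edgeR 4.0.16 in R 4.3.3 was fitted to lesser and other reads of all 3415 pairs, with 1 term per library, 1 for the junction and 1 for junction by genotype. P-values were adjusted by Benjamini-Hochberg over all pairs. Intervals of a change are 95% intervals from the pooled SD of both genotypes (n = 3 each). Alternatives were DESeq2 1.42.0, a quasi-binomial model with limma 3.58.1, and others given in the closing section. RNA level was fitted with edgeR (TMM). Intron retention was fitted with edgeR on intron and exon reads, with 1 term per library and without TMM. Scripts were tested on simulated data. Intervals and p-values cover counting error and the spread between these libraries only.

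Named pairs were the members called, the 10 with the smallest unadjusted p, the 6 with the most lesser reads and those in the lists of splicing genes, and others are said to be picked after their values were seen or stand for a group. The members and lists were chosen with earlier results of these data known.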

Additional observations from a re-analysis of the deposited data

How the results depend on the processing

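No paired analysis was possible because the WT replicates (2, 4 and 5) and the acinus-2 pnn replicates (6, 7 and 12) share no number. The count of members called by edgeR, 0, became 1 with DESeq2, 1 with the quasi-binomial model, 1 with 30 lesser and 90 other reads (each time AT4G02450) and 1 with no read minimum (RP1), and it was 0 without any 1 library. By the library-pair rule the count of 0 became 1 without thresholds on fold and frequency (AT4G02450) and 2 with 6 of 9 comparisons (CIPK23 and RP1). Leaving out 1 library gave 0 to 1, with RP1 called without WT replicate 2 and CIPK23 without acinus-2 pnn replicate 7. The median change of the lesser share ran from -0.22 to 0.17 percentage points without 1 library. The difference of the summed upstream share, 0.719 percentage points, became -1.003 as a median over pairs and -0.156 at fixed weights, and ran from 0.21 to 1.25 without 1 library.

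Of 186 values of 19 named pairs under an alternative, 172 kept direction and side of the threshold, 2 passed it (AT4G02450, with DESeq2 and the quasi-binomial model) and 12 changed sign, all close to 0 on the log2 scale. Leaving out 1 library gave -0.083 to 0.090 for AT1G15280 (above 0 without WT replicate 4 or 5 or acinus-2 pnn replicate 12), -0.75 to 0.015 for SCL33 (above 0 without WT replicate 2), -0.018 to 0.17 for emb1138 (below 0 without WT replicate 5), -0.022 to 0.19 for AT3G62840 (below 0 without WT replicate 4), -0.064 to 0.098 for OASA1 (below 0 without WT replicate 4 or acinus-2 pnn replicate 6) and -0.074 to 0.16 for AT5G04800 (below 0 without WT replicate 2 or acinus-2 pnn replicate 12). With 10 bases on each side AT3G62840 went to -0.030 and AT5G04800 to -0.0037. Genes with a pair that were higher numbered 4 to 5 and lower 1 to 3 without 1 library. For retention, DESeq2 gave 1 more and 0 less retained introns, 30 intron reads gave 6 more and 1 less retained, and leaving out 1 library gave 2 to 3 more and 0 to 1 less retained. The cause of these shifts was not tested. The overhang filter and the fixed weights were chosen after seeing the data.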

Other observations

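A few pairs were read in all or none within 1 genotype. In 21 members a library had 0 lesser reads where the pooled share would have given 5 or more, and in 14 of them over 50% of the lesser reads had under 10 bases on a side. With 10 bases on each side 5 such members remained. The clearest was RLM3 (AT4G16990), a resistance gene of the TIR type.
RLM3 (chr4:9562997-9563026, plus strand): gtggttgtttgtactTAGTAGccgaagagt
Its downstream acceptor had 59, 94 and 0 reads in WT and 0, 82 and 99 in acinus-2 pnn, beside 42, 90 and 104 and 87, 70 and 84 of the upstream one. With 10 bases on each side the lesser reads were 48, 84 and 0 and 0, 72 and 87. One library of each genotype was thus at 0, and the others stood at 51.1% to 58.4%. QQS (AT3G30720), a gene of starch metabolism, had 7, 0 and 9 in WT and 8, 15 and 12 in acinus-2 pnn. The myosin gene XI-I (AT4G33200) had 3, 9 and 0 in WT and 8, 7 and 14 in acinus-2 pnn.

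Other junctions appeared in 1 library alone and only with short overhangs. A donor pair of ROC4 (AT3G62030) had 0, 0 and 60 lesser reads in WT and 0, 0 and 0 in acinus-2 pnn, all with under 10 bases on a side. PSBQA (AT4G21280) had 0, 0 and 74 in WT and 0, 0 and 0 in acinus-2 pnn, 97.3% of them short. AT3G60750 had 0, 0 and 0 in WT and 0, 0 and 43 in acinus-2 pnn, 97.7% of them short. In contrast the lesser donor of ATMS1 (AT5G17920) was seen in every library, with 36, 78 and 59 and 63, 60 and 62 reads, although 99.2% were short. The cause was not tested.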
